A study of Saccharomyces cerevisiae with 4 samples.

Results

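BTN2, CUR1 and HSP42 are 3 of the 6002 nuclear protein-coding genes of budding yeast, Saccharomyces cerevisiae, for which Swc4 occupancy was examined here. They were grouped because their products sort misfolded proteins into deposits, and BTN2 and HSP42 were chosen by their fold and rank in these same peak lists. Their calls, folds and ranks are therefore given as a description, with no test. For each gene, every peak was taken that overlapped, by 1 bp or more, the gene itself or the 1000 bp upstream of its coding start.

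Btn2 carries misfolded cytosolic proteins to a deposit at or in the nucleus. Cur1 is its paralog and directs the Hsp40 cochaperone Sis1 to the nucleus, and overproduction of either protein cures cells of the prion form of Ure2. Hsp42 is a small heat shock protein that gathers misfolded proteins into cytoplasmic aggregates. Transcription of all these genes is known to be driven by the heat shock factor Hsf1. Swc4 belongs to the SWR1 complex, which places the histone variant H2A.Z beside promoters, and also to the NuA4 histone acetyltransferase. Yaf9 is a YEATS-domain reader of acylated histone H3 that is found in the same complexes.

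The assay was chromatin immunoprecipitation followed by sequencing (ChIP-seq) with an antibody against the myc tag. All 4 libraries came from haploid BY-background cells whose Swc4 carries 13 myc copies, grown untreated in rich YPD medium to mid-log phase. The wild_type group (2 libraries) has the tag alone, and the yaf9d group (2 libraries) has the tag and, by its name, a deletion of YAF9. Sample titles gave the genotype, because the entry meant for it names only the tag in the yaf9d samples. Whether replicates are separate cultures or clones is not stated in the labels, and their spread may be technical. No untagged strain or input was analysed here, so the level at these loci without the tag is not known, and peak lists do not show whether YAF9 is missing.

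The wild_type lists held 884 (replicate 1) and 704 (replicate 2) peaks. Those of yaf9d held 616 (replicate 1) and 1178 (replicate 2), of which 39 in the latter lay on mitochondrial DNA. Each peak carries the authors' fold enrichment at its summit over a local background, used here only to describe and rank peaks within a list. Folds ran from between 1.12 and 1.17 at the bottom of the lists to 9.44, 9.03, 15.04 and 9.16 at the top. The median fold was 1.83, 1.92, 2.50 and 1.80 in the same order, so yaf9d replicate 1 had higher folds than the other 3 lists throughout most of its range. A gene without a peak was not called, which does not show that Swc4 was absent from it.

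Swc4 peaks were called over the upstream regions of BTN2 and HSP42 in both yaf9d libraries but not in wild_type. CUR1 had no peak in any of the 4. Over all protein-coding genes, the same window held a peak for 25.3% and 20.9% in wild_type and for 17.1% and 27.2% in yaf9d. Calls in yaf9d alone, meaning both of its libraries and no wild_type one, were found for 152 genes, 2.53% of those examined. The reverse held for 3.73%, and 7.78% had a peak in all 4 libraries. With 1 library left out and its partner standing for the genotype, the 152 became 248 or 262 genes (wild_type replicate 1 or 2 left out) and 577 or 251 genes (yaf9d replicate 1 or 2 left out). Since BTN2 and HSP42 were chosen for this pattern, nothing is read from their share.

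**Figure D1:**
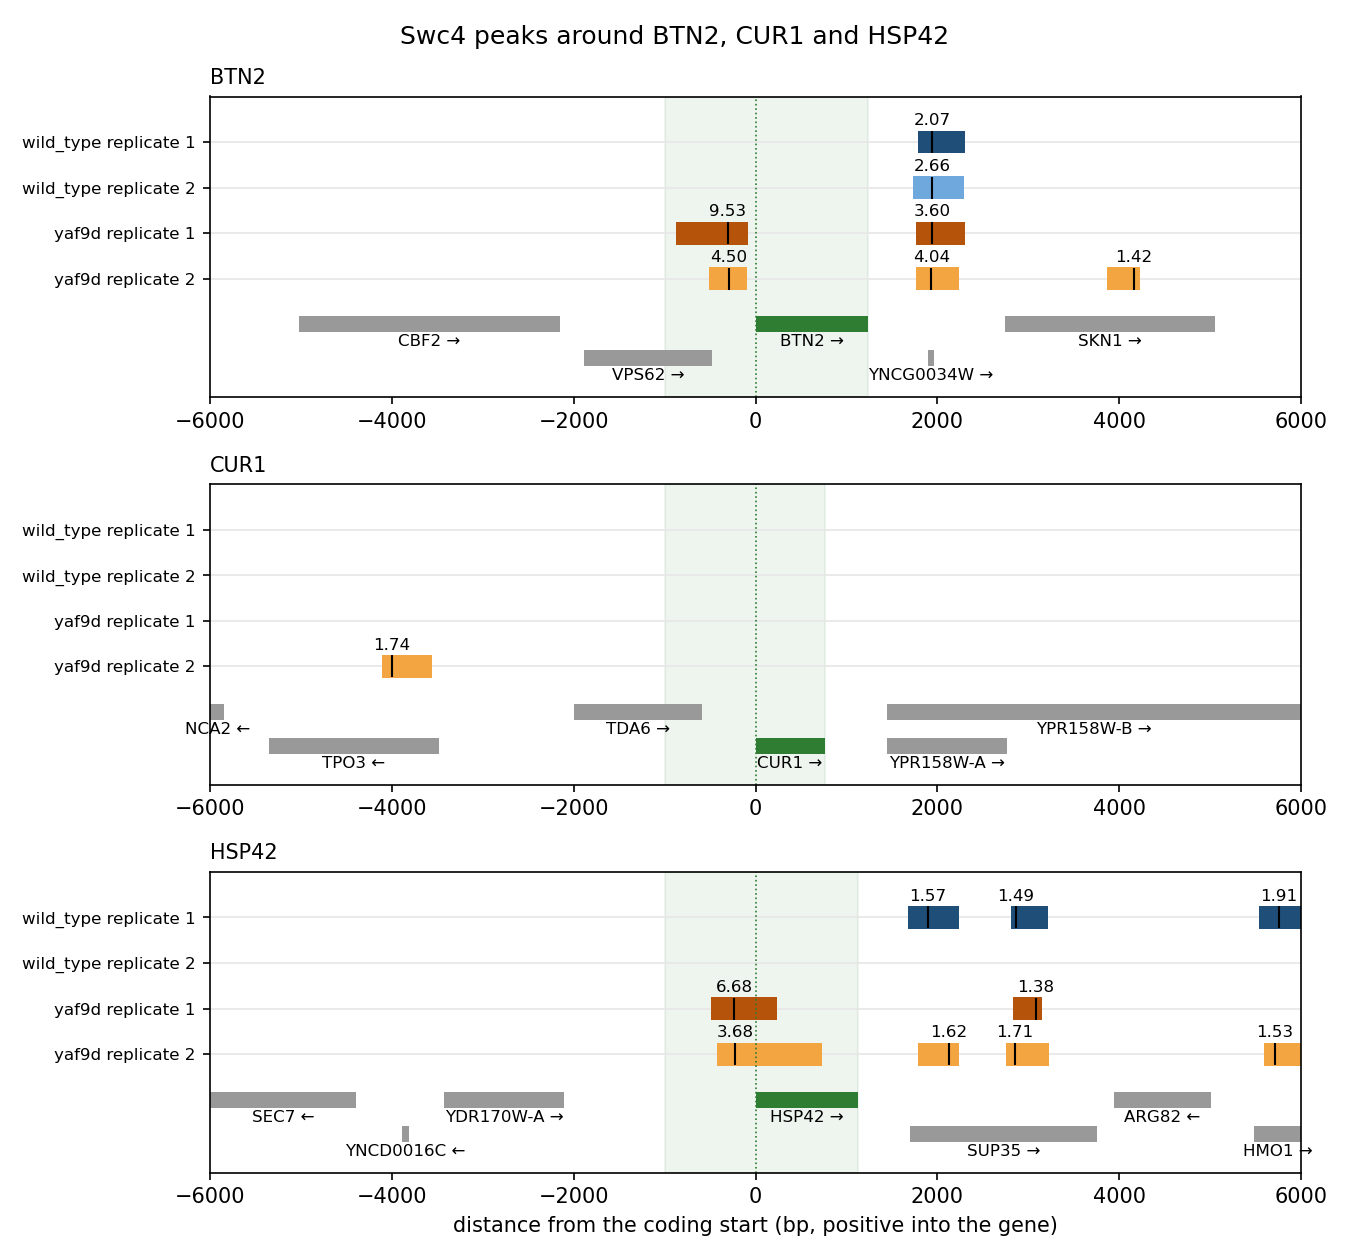
Peaks of each library (coloured bars, black tick at the summit, authors' fold above it) within 6000 bp of the coding starts of BTN2, CUR1 and HSP42, with genes as bars below and arrows for their direction. The horizontal axis is the distance from the coding start in bp, and shading marks the gene and its 1000 bp upstream. BTN2 and HSP42 have a peak inside the shading in the yaf9d libraries alone (folds of 9.53 and 4.50, and of 6.68 and 3.68), while CUR1 has none in any library.

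BTN2 (YGR142W, chromosome VII) had the highest fold of the group. In yaf9d replicate 1 its peak ran from 771574 to 772371, 798 bp, with a summit at 772148 and a fold of 9.53. The −log10 q-value there was 208, and the fold ranked 27th of 616 peaks. In yaf9d replicate 2 the peak ran from 771940 to 772357, 418 bp, with a summit at 772162, a fold of 4.50 and a −log10 q-value of 75.02, and it ranked 76th of 1178. These summits lay 14 bp apart, at 306 and 292 bp upstream of the coding start. Both intervals stopped short of the coding sequence, by 83 and 97 bp.

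The upstream neighbour of BTN2 is VPS62, a vacuolar protein sorting gene transcribed in the same direction, whose coding end lies 481 bp before the BTN2 coding start. Both summits fell in this gap. The peak of yaf9d replicate 1 also covered the last 399 bp of VPS62, 50.0% of the interval, and that of replicate 2 covered 33 bp. The greater width in replicate 1 thus came from the VPS62 side. VPS62 has the same yaf9d calls by this overlap alone and is not an independent case.

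Downstream of BTN2 a peak was called in all 4 libraries. It lay over the tRNA gene YNCG0034W, 662 bp past the end of BTN2 and outside the window by 501 to 553 bp. Its wild_type folds were 2.07 and 2.66, and its yaf9d folds 3.60 and 4.04. All 4 of its summits lay within 10 bp of each other, from 774389 to 774399. The wild_type libraries thus gave a called peak beside BTN2, though not at its upstream region. Next to the tRNA peak, the BTN2 peak had the higher fold in each yaf9d library, 9.53 against 3.60 and 4.50 against 4.04.

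HSP42 (YDR171W, chromosome IV) had the second pair of peaks. In yaf9d replicate 1 the peak ran from 806125 to 806854, 730 bp, with a summit at 806383, a fold of 6.68 and a −log10 q-value of 116, and ranked 60th of 616. In yaf9d replicate 2 it ran from 806194 to 807353, 1160 bp, with a summit at 806393, a fold of 3.68 and a −log10 q-value of 50.0, and ranked 119th of 1178. The summits lay 10 bp apart, 238 and 228 bp upstream of the coding start. In both libraries HSP42 thus stood below BTN2 in fold and in rank.

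The HSP42 intervals, unlike those at BTN2, ran into the gene. They covered the first 234 bp of the coding sequence in replicate 1 (32.1% of the interval) and the first 733 bp in replicate 2 (63.2%). The latter was wider than 96.8% of the peaks in its list, whose median width was 407 bp. At BTN2 the wider peak was in replicate 1 and at HSP42 in replicate 2, so the order of widths differed between the loci.

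No other gene or its 500 bp upstream lay under the HSP42 intervals. The nearest upstream gene, YDR170W-A, ends 2103 bp before HSP42. The gene downstream is SUP35, which encodes the translation termination factor that forms the prion PSI+, and it begins 575 bp after HSP42. Low peaks with summits in SUP35 were called with folds of 1.57 and 1.49 in wild_type replicate 1, 1.38 in yaf9d replicate 1, and 1.62 and 1.71 in yaf9d replicate 2. Wild_type replicate 2 had none there, and its nearest downstream peak began 9239 bp past HSP42, over UBC1 with a fold of 1.73. Peaks just downstream of HSP42 were thus called in either genotype, at folds well under those of its upstream region in yaf9d.

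CUR1 (YPR158W, chromosome XVI) was among the 3451 protein-coding genes, 57.5%, with no peak in any library. The nearest peak to its window was in yaf9d replicate 2, from 839149 to 839698, with a fold of 1.74 and its summit inside TPO3, a polyamine transporter gene. That peak ended 2564 bp before the window. In the other libraries the nearest peak on either side lay from 9887 to 12826 bp from the window. Within 10 kb of the gene the number of peaks was 0, 0, 0 and 2, against 3, 1, 3 and 4 around BTN2 and 3, 1, 2 and 4 around HSP42 (wild_type replicates 1 and 2, then yaf9d replicates 1 and 2). CUR1 thus lay in a stretch with few calls in either genotype. Its neighbours are TDA6, which ends 592 bp upstream, and YPR158W-A with YPR158W-B, which begin 688 bp downstream.

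The summits upstream of BTN2 and HSP42 were closer to the coding start than most. Among genes with a summit within 1000 bp upstream, the nearest lay at a median of 505 bp in yaf9d replicate 1 (691 genes, middle 50% from 339.5 to 674.5 bp) and 554 bp in replicate 2 (892 genes, 394.75 to 754.25 bp). All 4 member summits, at 228 to 306 bp, lay below the lower bound of that middle range. A summit can be counted for more than 1 gene in these medians, and summits inside a neighbouring gene are counted too. The 4 member summits are the same loci seen in each yaf9d library, not separate cases.

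The read pileup behind each fold was recovered from the listed fold and p-value, and a whole number of fragments that gave the listed p-value was found for all 4 member peaks. At the BTN2 summit it was 348 over a background of 35.6 in yaf9d replicate 1 (exact 95% Poisson interval of the pileup 312 to 387) and 237 over 51.9 in replicate 2 (208 to 269). At the HSP42 summit it was 252 over 36.9 (222 to 285) and 200 over 53.6 (173 to 230). These intervals cover counting error only. The pileup intervals of the replicates did not overlap at BTN2 and overlapped at HSP42. Pileups were not scaled for library depth, so such overlap between replicates depends on depth as well. All 4 backgrounds were below the median of their list, at 0.766, 0.729, 0.793 and 0.752 times that median.

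The wild_type lists held peaks at folds far below these values. On backgrounds of 30 to 60, a range set after the values were seen to bracket those at the members, wild_type replicate 1 listed 391 peaks with folds down to 1.37 and replicate 2 listed 340 with folds down to 1.38. The background at BTN2 and HSP42 in the wild_type libraries is itself not in the lists. No bound on the wild_type level at these loci was obtained.

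**Figure D2:**
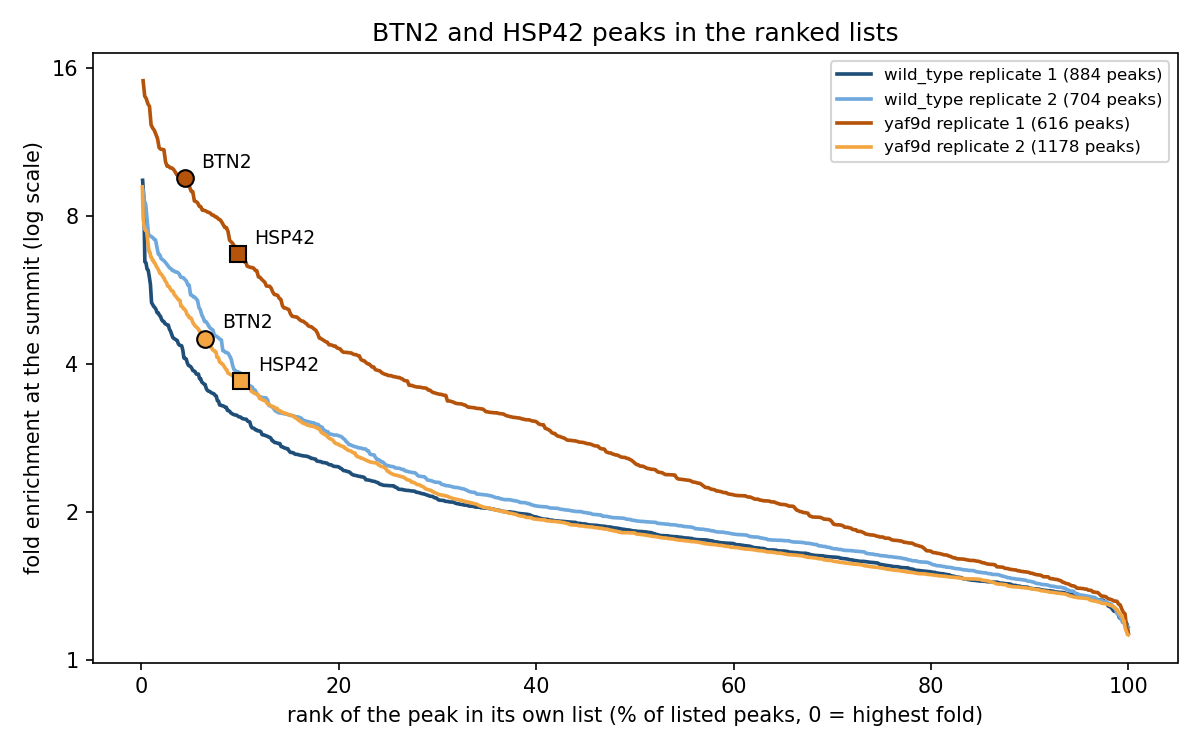
Authors' fold at the summit (vertical axis, log scale) against the rank of the peak as a percentage of its own list (horizontal axis), 1 line per library, with BTN2 as circles and HSP42 as squares. BTN2 stands at 4.38% and 6.45% and HSP42 at 9.74% and 10.1% of the yaf9d lists, and the line of yaf9d replicate 1 lies above the others over most of its length.

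Both loci had similar places in the yaf9d lists although their folds differed between the replicates. BTN2 stood at 4.38% and 6.45% from the top and HSP42 at 9.74% and 10.1%. Relative to the median fold of the list, BTN2 was 3.81 and 2.49 times higher and HSP42 2.67 and 2.04 times. The ratio of the fold in replicate 1 to that in replicate 2 was 2.12 at BTN2 and 1.81 at HSP42, against a median of 1.12 over 469 pairs of overlapping yaf9d peaks. Of those pairs, 98.1% had a lower ratio than BTN2 and 94.9% a lower ratio than HSP42. The ratio was higher where the fold was high. Among the 189 pairs with a fold of 3 or more in replicate 2, a bound set after the values were seen, the median was 1.23, and 5 and 15 pairs had a higher ratio than BTN2 and HSP42.

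The parts of this ratio can be given separately. The pileup was 1.47 times higher in replicate 1 at BTN2 and 1.26 times at HSP42, against a median of 0.906 over the pairs. The background was 0.686 and 0.688 times that of replicate 2, against a median of 0.834. Pileup and background were not scaled for library depth, so these ratios by themselves do not split the difference. Relative to the medians of the pairs, the pileup ratio was higher and the background ratio lower at both loci. The positions of the summits, by contrast, were as close as usual: 14 and 10 bp apart, against a median of 14 bp over the pairs.

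**Figure D3:**
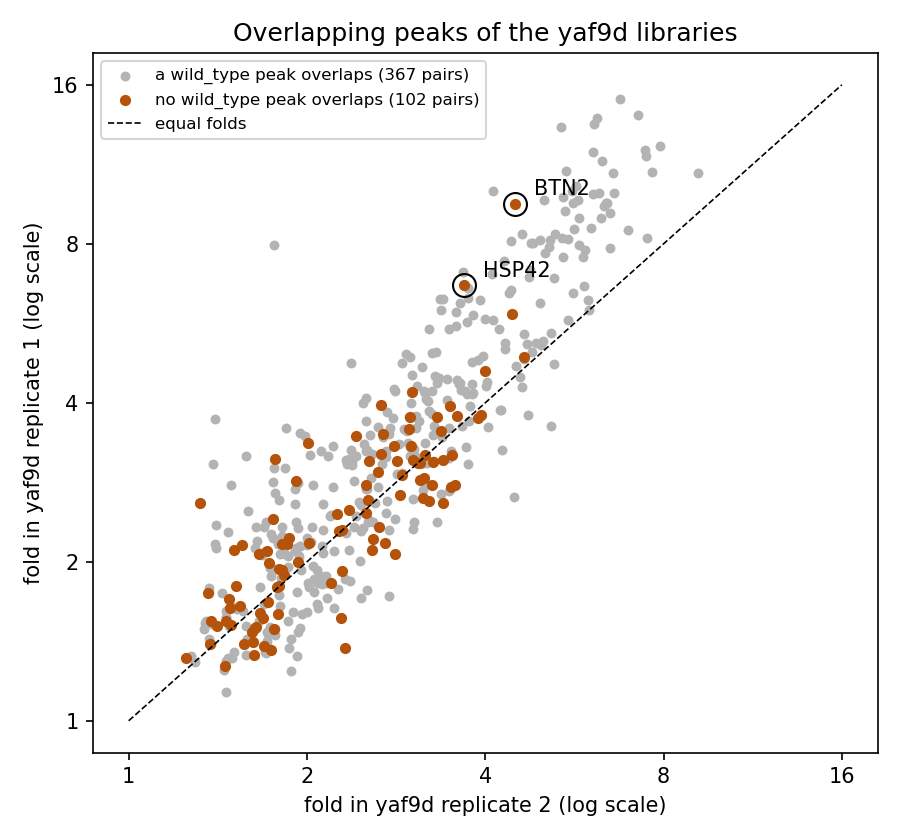
Authors' fold in yaf9d replicate 1 (vertical) against replicate 2 (horizontal), both on log scales, for 469 pairs of overlapping peaks, with pairs that no wild_type peak overlaps in orange (102) and the rest in grey (367). BTN2 (9.53 and 4.50) and HSP42 (6.68 and 3.68) are circled, and both lie above the dashed line of equal folds.

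Next to the other yaf9d peaks that no wild_type peak overlapped, both loci stood near the top, as their choice implies. In yaf9d replicate 1 such peaks numbered 195 of 616 (31.7%) with a median fold of 2.07, and BTN2 was the first and HSP42 the second of them. In replicate 2 they numbered 550 of 1139 nuclear peaks (48.3%) with a median fold of 1.68, and BTN2 was the second and HSP42 the seventh. Peaks shared with a wild_type library had higher medians, 2.95 and 2.005. Most peaks of a yaf9d list that no wild_type peak overlapped thus had folds well below those at BTN2 and HSP42. Such peaks need not be called in the other yaf9d library, as those at BTN2 and HSP42 were.

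The genes with the most similar pattern over the 4 libraries were found by the distance between their ranks, scaled from 0 (no peak) to 1 (first in the list). For BTN2 the nearest was HSP42 (distance 0.0648), then ISA1 (0.0796) and INP52 (0.120). The distance uses the ranks by which BTN2 and HSP42 were chosen, so their closeness follows from the choice and is no separate finding. For HSP42 the nearest was ISA1 (0.0434), followed at 0.0648 by BTN2 and by VPS62, which shares the BTN2 peak. ISA1, a mitochondrial iron-sulfur assembly gene on chromosome XII, had peaks from 86832 to 87215 and from 86868 to 87190, with folds of 5.90 and 4.43 and summits 379 and 388 bp upstream. INP52, a phosphoinositide phosphatase gene on chromosome XIV, had folds of 4.88 and 4.66, with summits 3701 and 3697 bp past its coding start and not upstream. YNL108C shares this peak and its values. None of these genes had a wild_type peak in its window, which the distance favours because no peak counts as 0. For CUR1 no such order exists, since 3450 other genes share its pattern of no peak.

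Other genes of protein quality control were examined in 5 lists with 56 genes in all, BTN2, CUR1 and HSP42 left out. A peak over the gene or its 1000 bp upstream was present in wild_type at 10 and 13 of the 56, and in yaf9d at 15 and 21. These are 17.9%, 23.2%, 26.8% and 37.5% of the lists, beside 25.3%, 20.9%, 17.1% and 27.2% of all coding genes. The means were 11.5 ± 2.12 and 18.0 ± 4.24 genes (SD, n = 2 each). The difference was 6.5 genes, and 3.5 genes without yaf9d replicate 2 or with peaks of fold 2 or more. The lists were chosen with results of these data known, and 2 against 2 libraries allow no exact permutation p under 0.333, so no test supports this difference. Over all coding genes the means were 1387.5 ± 185 and 1327.5 ± 428 (SD, n = 2; exact two-sided permutation p = 1). When gene bodies were left out and only the 1000 bp upstream was used, the difference on the lists shrank to 1 gene. The calls were then 8 and 10 in wild_type against 9 and 11 in yaf9d. As shares these are 14.3%, 17.9%, 16.1% and 19.6%, near the 20.4%, 17.5%, 14.05% and 19.6% of all coding genes. In that setting and at fold 2 or more, the SUP35 call in yaf9d replicate 2 rests on the HSP42 peak itself.

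**Figure D4:**
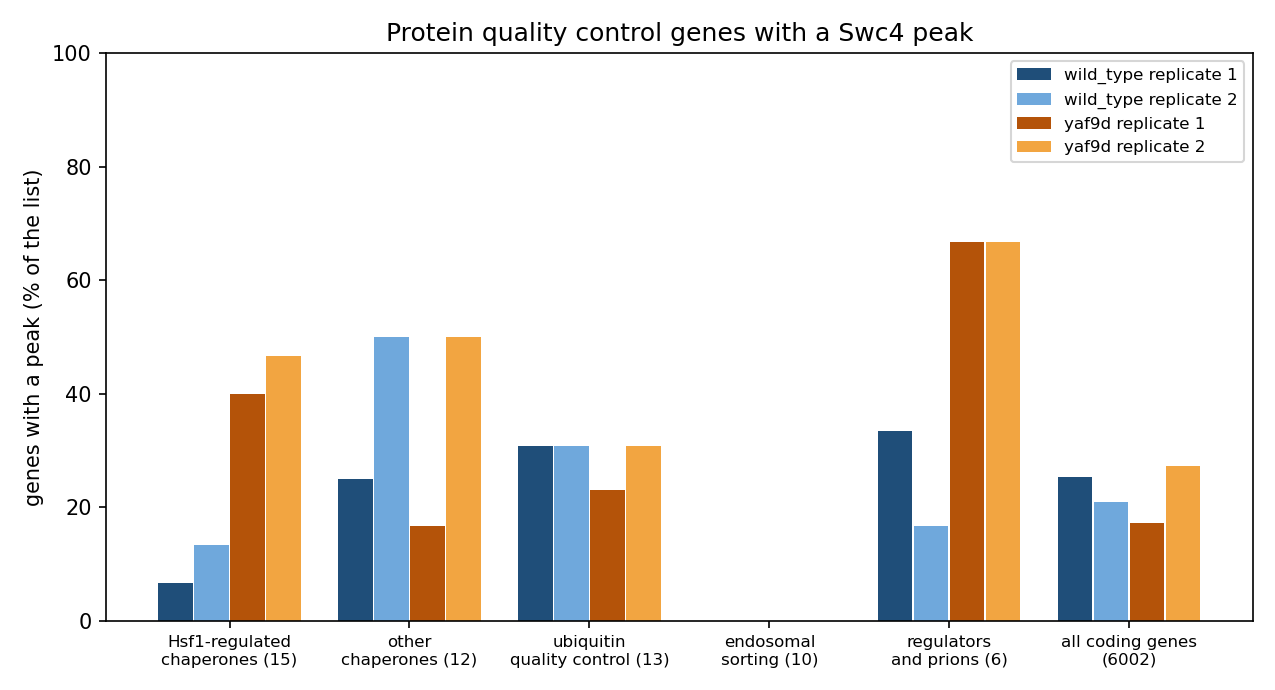
Share of genes with a peak over the gene or its 1000 bp upstream (vertical axis, % of the list) in each library, for 5 lists of protein quality control genes and for all 6002 coding genes, with list sizes in parentheses. The Hsf1-regulated chaperone list stands at 6.67% and 13.3% (wild_type) and at 40.0% and 46.7% (yaf9d), and the endosomal sorting list at 0 in every library.

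Of 15 chaperone genes listed as dependent on Hsf1, 1 and 2 had a wild_type peak and 6 and 7 a yaf9d peak. Both wild_type shares (6.67% and 13.3%) were under the shares of all coding genes, 25.3% and 20.9%, and both yaf9d shares (40.0% and 46.7%) were over theirs, 17.1% and 27.2%. With the upstream 1000 bp alone the counts were 1 and 2 against 3 and 2, and the share in yaf9d replicate 2 turned to 13.3%, under the 19.6% of all coding genes. In yaf9d replicate 1 it was 20% against 14.05%. With peaks of fold 2 or more the counts were 1 and 0 against 2 and 2. As shares these are 6.67%, 0%, 13.3% and 13.3%, beside 9.76%, 9.50%, 11.4% and 11.1% of all coding genes. Many of the list's yaf9d calls therefore came from peaks within the genes and at folds under 2. The list was chosen with results of these data known and may not hold every such gene. SSA4, placed among the other chaperones, went the other way, with wild_type folds of 2.05 and 6.24 and no yaf9d peak. APJ1, also placed there, was called in yaf9d replicate 2 alone (1.77).

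At SSA1, SSA2, MBF1 and MDJ1 a peak was called in each yaf9d library but in no wild_type library. These 4 are 26.7% of the list, against 2.53% of all coding genes. Their number fell to 2 at a −log10 q of 5 or more, to 1 without gene bodies and to 0 at a fold of 2 or more, while the genes called in yaf9d alone over all coding genes numbered from 117 to 164 under these settings. SSA1 and SSA2 encode the main cytosolic Hsp70 proteins. At SSA2 the folds were 1.51 and 1.64, with summits 400 and 404 bp inside the coding sequence. At SSA1 both libraries had a peak near the end of the gene, with folds of 1.41 and 1.62 and summits 1847 and 1858 bp past the coding start, and replicate 2 had 2 more inside it (2.04 and 2.17). The genes are near-identical copies, and how reads shared between them were placed is not given in the sources used here. MBF1, a transcriptional coactivator gene, had folds of 1.60 and 1.67, with summits 136 and 155 bp inside. MDJ1, a mitochondrial Hsp40 gene, had a peak of fold 3.72 in replicate 1, with its summit 425 bp upstream, inside YFL015C. That peak is also the only one counted for HSP12 in the list of other chaperones. In replicate 2 MDJ1 had a different peak, of fold 1.34 and inside the gene. None of the 4 thus had an upstream summit in both yaf9d libraries, as BTN2 and HSP42 had.

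HCH1 and HSP82 differed from that pattern. HCH1, an activator of Hsp90, had a peak in wild_type replicate 2 (1.67) and in both yaf9d libraries (3.47 and 1.99), with summits 355, 1098 and 405 bp upstream. The 3.47 summit is thus outside the window and apart from those at 355 and 405 bp, which lay inside POP3. HSP82, which encodes the stress-induced Hsp90, had a peak in each wild_type library (2.04 and 1.79) but none in yaf9d, a pattern of 3.73% of coding genes. Its summits lay 1154 and 1153 bp upstream, outside the window and inside YAR1. The disaggregase gene HSP104, the Hsp40 gene SIS1 and 4 further genes of the list had no peak in any library. Together they are 40% of the list, against 57.5% of all coding genes.

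The list of 12 other chaperone genes had 3 and 6 called genes (wild_type) against 2 and 6 (yaf9d). The shares were 25%, 50.0%, 16.7% and 50.0%, beside 25.3%, 20.9%, 17.1% and 27.2% of all coding genes, so replicate 2 of either genotype was above that level. SSB2 and SSB1, near-identical genes for ribosome-bound Hsp70 proteins, were called in 4 and 3 libraries with a highest fold per library from 1.47 to 1.89, and their summits lay inside the genes. SNL1, an Hsp70 cochaperone gene, was called in replicate 2 of each genotype (4.25 and 3.75). SSA4, a stress-induced Hsp70 gene, was called in both wild_type libraries alone (2.05 and 6.24), with summits 1074 and 2067 bp upstream and outside the window. The summit at 1074 bp lay inside another gene, RPS8B. No gene of this list showed the pattern of BTN2 and HSP42.

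The list of 13 genes for ubiquitin-dependent quality control had 4 and 4 called genes (wild_type) against 3 and 4 (yaf9d). At 30.8% in 3 libraries and 23.1% in yaf9d replicate 1, the list was near the 25.3%, 20.9%, 17.1% and 27.2% of all coding genes. RPN4, which encodes the activator of proteasome genes, was the one closest to HSP42 in its yaf9d values. Its folds were 6.29 and 3.36 in yaf9d, ranks 67 of 616 and 148 of 1178, with summits 345 and 375 bp upstream. Unlike HSP42 it had a wild_type peak, in replicate 2, with a fold of 2.88 and a summit 362 bp upstream. UBI4, the polyubiquitin gene, had wild_type folds of 1.91 and 1.399 and yaf9d folds of 3.999 and 2.49. All 4 intervals overlapped. The yaf9d summits lay 291 and 289 bp upstream, and the wild_type summits 1653 and 693 bp upstream, inside PRP19 and ENT4. The folds were thus read at different points of the called region. HRD1, a ubiquitin ligase of the endoplasmic reticulum, had wild_type folds of 1.72 and 1.59, and 1.61 in yaf9d replicate 2. Those summits lay 807, 803 and 798 bp upstream, inside the gene HTZ1.

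Genes for endosomal sorting, which hold the retromer subunits and reported partners of Btn2, had no peak at any of 10 members in any library, as was the case for 57.5% of all coding genes. Among 6 genes for stress regulators and prion proteins, 2 and 1 were called in wild_type, against 4 and 4 for yaf9d. Per library these are 33.3%, 16.7%, 66.7% and 66.7%, against 25.3%, 20.9%, 17.1% and 27.2% of all coding genes. With 500 bp upstream the counts fell to 1 and 0 against 2 and 2. These are 16.7%, 0%, 33.3% and 33.3%, beside 21.2%, 18.1%, 14.4% and 22.4% of all coding genes. With peaks of fold 2 or more the counts were 0 and 0 against 1 and 2. These are 0%, 0%, 16.7% and 33.3%, beside 9.76%, 9.50%, 11.4% and 11.1% of all coding genes. At that fold the SUP35 call in yaf9d replicate 2 comes from the HSP42 peak alone (3.68). HSF1 itself had a peak in each yaf9d library but none in wild_type, with folds of 2.17 and 2.02. The summits lay 2611 and 2599 bp past its coding start, beyond the 2502 bp coding sequence and outside the window, and AFT1 shares this peak. MSN2, a general stress activator gene, showed the same calls with folds of 1.49 and 1.76 and summits 823 and 824 bp upstream. SUP35 was called in yaf9d replicate 2 by the end of the HSP42 interval as well as by its own low peaks. RNQ1, whose product forms the prion PIN+, was called in both wild_type libraries (1.52 and 1.39) and in yaf9d replicate 2 (1.49). Its summits lay 1008, 984 and 796 bp upstream, inside BIK1.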

How the data were processed

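Per the labels, tagged Swc4 was precipitated from sonicated yeast chromatin and sequenced. Tools named in the submitters' processing notes are MACS2 (version 2), SAMtools 1.4 and BWA 0.7.15-r1140; what each did, the genome build, the control and the threshold are not stated there. The authors deposited 1 peak list per library, not pooled, with the interval, summit, fold (a ratio over a local background), −log10 p-value and −log10 q-value. The deposited score equals 10 times the −log10 q-value without decimals in 3382 of 3382 peaks and was not used. No read totals come with the lists, so library depth is not known and the recovered pileups were not scaled for it.

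Genes came from a RefSeq table of assembly R64. No source names the build behind the peaks, so coordinates of that table are left out and distances to genes assume a match. Among 276 summits at most 300 bp from a tRNA gene's midpoint, 88.8% were within 100 bp. Peak starts are 1-based. Strand was read from systematic names, and VPS26 and BTN1 were matched by synonym.

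Pileup and background were recovered by taking the fold as the pileup plus 1 over the background plus 1, and searching for the whole pileup whose upper Poisson tail gave the listed p-value within 0.001. Overlap and recovery were tested on simulated data. Alternatives were 500 bp upstream, no gene body, summits only, a −log10 q of 5 or more, a fold of 2 or more, and leaving out each library. Genotypes were compared by exact permutation of the 4 libraries. Python 3.11.15, pandas 2.3.3 and scipy 1.17.1 were used.

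The genes and lists were chosen with earlier results of these data known. Named genes are the members, genes sharing their intervals, the 3 most similar genes, and from each list up to 3 genes called in the most libraries plus those called in both libraries of 1 genotype alone; HSP104 and SIS1 were named after their values were seen.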

Additional observations from a re-analysis of the deposited data

How the results depend on the processing

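BTN2 and HSP42 had a peak in every yaf9d library and no wild_type library used, and CUR1 none, under all 9 alternatives. This outcome was fixed in advance. Each alternative only narrows the window, the peaks or the libraries, so none could add a wild_type call or a CUR1 call. The member peaks, by their summits, folds and q-values given above, pass each of them. The number of genes with the yaf9d pattern ranged from 117 to 164 under the window and threshold alternatives, and from 248 to 577 when 1 library was left out, since 1 library then stands for its genotype. The yaf9d minus wild_type difference over all coding genes was -60 genes. It turned to 99 with peaks of fold 2 or more (exact permutation p = 0.333) and ranged from -362.5 to 242.5 when 1 library was left out. On the quality control lists it stayed positive, from 1 to 9.5 genes against 6.5. With the replicate number as a block the differences were again -60 and 6.5 genes, with exact sign-flip p of 1 and 0.5, the latter the smallest possible. The labels do not say that a number marks a shared batch, and the correlation of same-numbered deviations over 2551 genes was 0.0874. The lists hold no level below the calling threshold, which limits what can be said of wild_type at these genes.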
